A study of Danio rerio with 4 samples.

Results

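The genes described here belong to families with roles in the lysosome. These are cathepsins, which digest protein there, the lysosomal membrane glycoproteins LAMP1 and LAMP2, subunits of the vacuolar proton pump (V-ATPase), and granulins. The genes are called lysosome genes here by symbol, and where each product acts was not tested. They were chosen by gene symbol, as rows of the deposited table whose symbol begins with cts, lamp, atp6v0, atp6v1 or grn followed by a letter or digit, whose mean over the 4 libraries reached 10. The symbol pattern matched 42 of 19875 genes and 40 passed the minimum, 15 cathepsins, 2 LAMPs, 7 subunits of the V0 sector, 12 subunits of the V1 sector and 4 granulins. All 40 were among the 16730 genes tested. The 2 left out were atp6v1c2, at 7 and 4 in ccn2a-/- and at 0 and 1 in wild-type, and ctsbb, at 10 and 3 against 15 and 2. Just inside the minimum were ctsl.1, with a mean of 11.25, and ctss1, with a mean of 11.5.

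RNA came from zebrafish (Danio rerio) cardiac ventricles taken 4 days after cryoinjury (4 dpci in the sample titles), with the atrium and bulbus arteriosus removed. There were 2 libraries from ccn2a-/- fish, which carry a mutation in the gene of a secreted matricellular protein, and 2 from wild-type fish. The age of the fish, the lesion in ccn2a and the number of hearts in a sample are not given in the sources used here, so the spread behind each p-value is that between samples and could be technical. Both groups were injured, so the comparison asks what differs between genotypes after injury and holds no uninjured reference.

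Lysosomes receive material from endocytosis, phagocytosis and autophagy and break it down at low pH. The V-ATPase sets that pH: its V1 sector in the cytosol hydrolyses ATP, and its V0 sector in the membrane conducts protons. Cathepsins need the acid lumen to mature and work, and LAMPs protect and organise the limiting membrane. Progranulin is delivered to the lysosome and cut there into granulin peptides. In injured hearts, macrophages that clear dead tissue are rich in lysosomes, while cardiomyocytes, fibroblasts and endothelial cells carry them too. In bulk tissue, fewer cells of a type and less RNA per cell cannot be told apart.

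Values are the authors' read counts per gene after scaling each library by its size factor and rounding, called normalised counts here. Approximate depth, recovered from the spacing of the low values, was 17.2 M to 21.5 M reads per library. Wild-type replicate 2 stood apart, since transcripts of the mitochondrial genome made up 7.66% of its values against 13.4% to 14.7% in the other libraries. The targeted gene, listed under its older symbol ctgfa, was at 3070 and 1473 in ccn2a-/- against 4737 and 4411 in wild-type. Its transcript was thus lower in each mutant library, 2.15-fold in the fit, and still present (limma, adjusted p = 0.381).

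Most lysosome genes lay close to each other in the genotypes, and grn1, the gene of a short granulin, was the exception in size. No member passed an adjusted p of 0.05 (limma-trend on log2(normalised count + 1), smallest adjusted p among members 0.381), and neither did any of the 16730 genes (0%), of which 2145 had an unadjusted p under 0.05. At an unadjusted p under 0.05 there were 3 members, grn1 and atp6v1c1b lower and ctsll higher in ccn2a-/-. That is 7.5% of the members, against 12.8% of all genes tested. The voom fit also called 0 genes at the adjusted threshold.

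The groups did not overlap at 20 of the 40 members, or 50%, against 52.3% of all genes. They were lower in ccn2a-/- at 12, or 30%, where all genes gave 25.7%, and higher at 8, or 20%, where all genes gave 26.6%. The fitted log2 fold change was below 0 for 25 members, or 62.5%, beside 50% of all genes. The median log2 fold change of the members was -0.13, beside 0.00 for all genes. A fitted log2 fold change beyond 1 in size was found for 2 members, or 5%, and for 13.9% of all genes. Large differences were no more frequent among these genes than in the table as a whole.

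**Figure D1:**
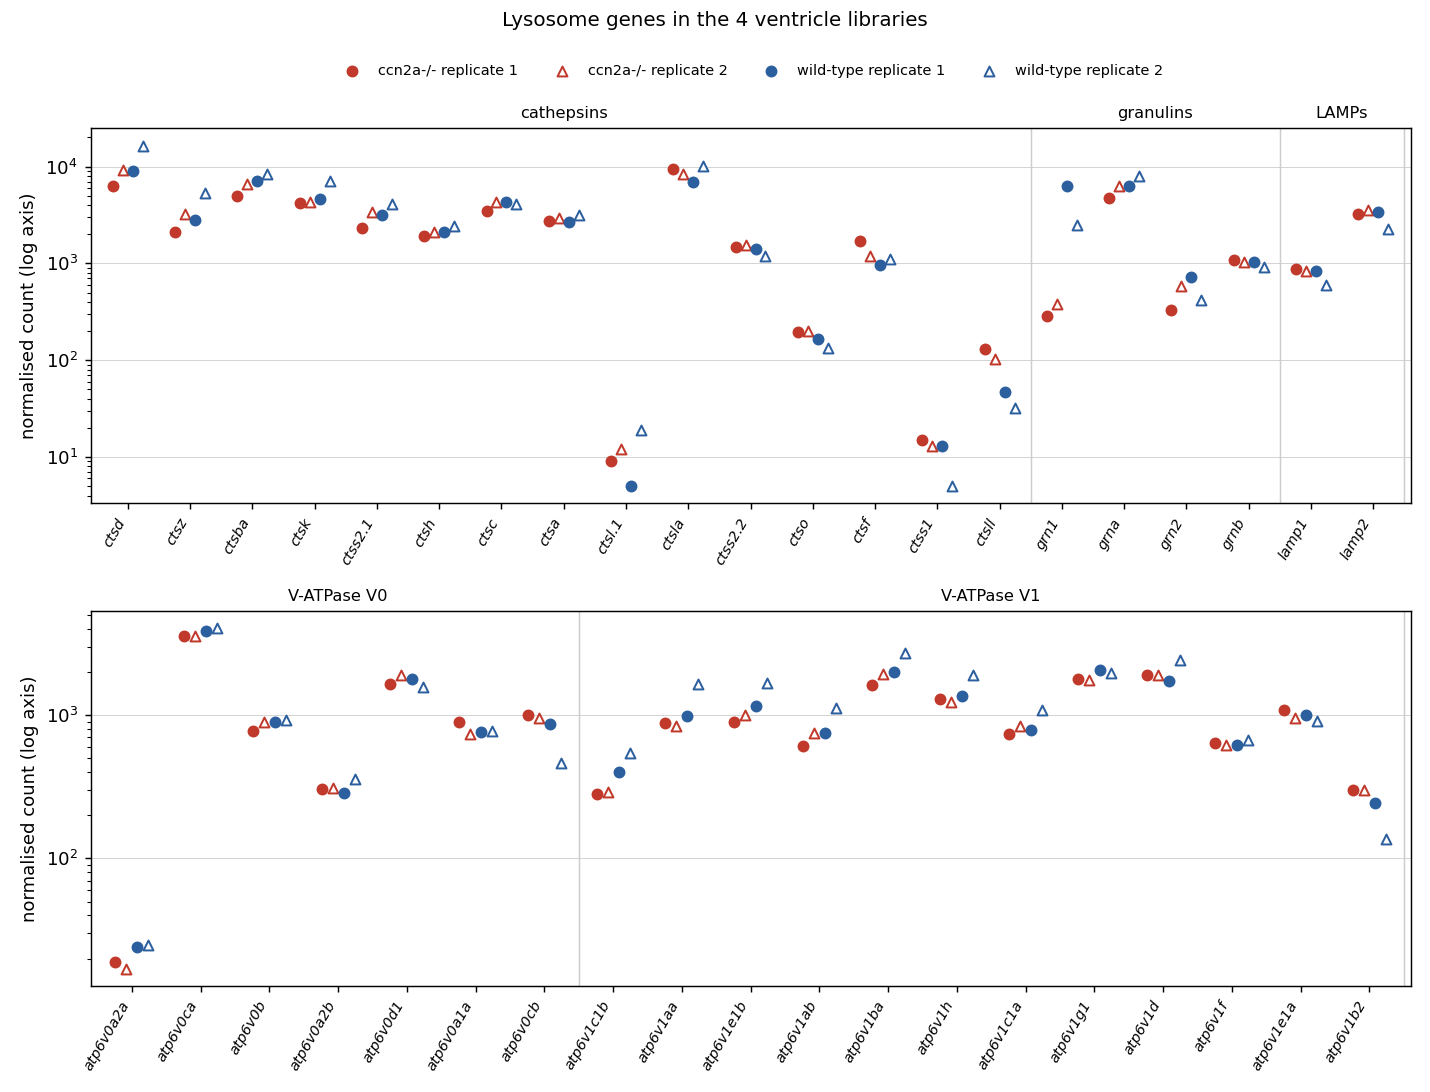
Normalised count (log axis) of each of the 40 lysosome genes in the 4 libraries, grouped by class and ordered within a class by fold change. For most genes the red (ccn2a-/-) and blue (wild-type) points lie together, while grn1 is at 285 and 378 in ccn2a-/- against 6351 and 2475 in wild-type, and the open blue triangles of wild-type replicate 2 often lie at the edge.

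**Figure D2:**
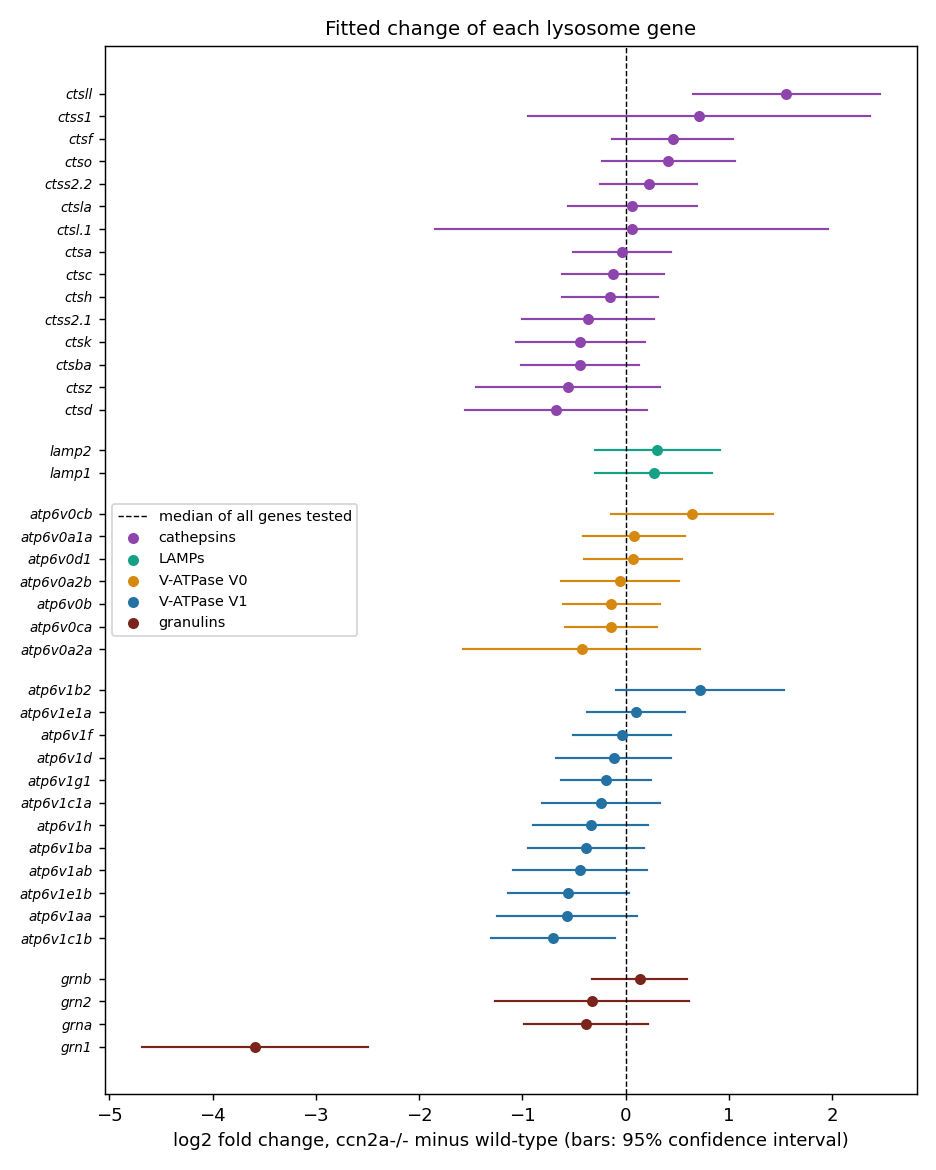
Fitted log2 fold change, ccn2a-/- minus wild-type, of each member with its 95% confidence interval (limma-trend, 2 libraries per group); the dashed line is the median of all genes tested. Intervals of grn1, ctsll and atp6v1c1b lie to one side of 0 and those of the other members cross it.

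The granulins showed the widest range of any class. The gene grn1, which in zebrafish encodes a short granulin rather than full progranulin, had 285 and 378 normalised counts in ccn2a-/- replicates 1 and 2, against 6351 and 2475 in wild-type replicates 1 and 2. Every mutant value lay well below every wild-type value, and the wild-type libraries themselves were far apart. In mean and SD this was 331.5 ± 65.8 against 4413 ± 2741 (n = 2 each), a log2 fold change of -3.59 with an SE of 0.447, or 12.05-fold lower (limma, unadjusted p = 1.96e-04, adjusted p = 0.381). The 95% confidence interval ran from -4.68 to -2.50. The difference was -4.27 without wild-type replicate 2 and between -3.79 and -2.91 without each of the other libraries.

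The neighbouring gene grn2, another short granulin, did not show this difference. Its 4 values were 327 and 580 in ccn2a-/- and 721 and 414 in wild-type, with overlapping groups and a log2 fold change of -0.33 (95% confidence interval -1.27 to 0.62). Without ccn2a-/- replicate 1 its log2 fold change was 0.09. Within a library, the ratio of grn1 to grn2 does not depend on the scaling of that library. It was 0.872 and 0.652 in ccn2a-/- and 8.81 and 5.98 in wild-type, so that the smaller wild-type ratio exceeded the larger mutant ratio several-fold.

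Both genes lie on the minus strand of chromosome 19, grn1 from 40186677 to 40192249 and grn2 from 40196462 to 40199098, with 4.21 kb and no other listed gene between them. Coordinates are those of the deposited table. The submitters' processing notes name GRCz10, the table names no build, and the build of the coordinates is not settled here. Within 100 kb of grn1 the table held 7 other tested genes, grn2 included. Of these, 0 reached an unadjusted p under 0.05 (limma), beside 12.8% of all genes tested. With 7 genes, a count of 0 cannot show that the region was alike in the genotypes. Log2 fold changes of the 7 ran from -1.85 for the cell cycle kinase gene cdk6, at 5 and 33 against 57 and 45, to 0.88 for rbm48. The nearest, efcab1, ends 0.349 kb from grn1 and was at 19 and 14 against 22 and 31. The gene illr4 was at 22 and 32 against 40 and 101 (log2 fold change -1.23). Groups did not overlap for illr4, cdk6 and efcab1, lower in ccn2a-/-, and for rbm48, higher, beside 52.3% of all genes. Whether reads of grn1 and grn2 were shared by the counting was not tested, and neither was a difference in gene copies between the stocks.

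**Figure D3:**
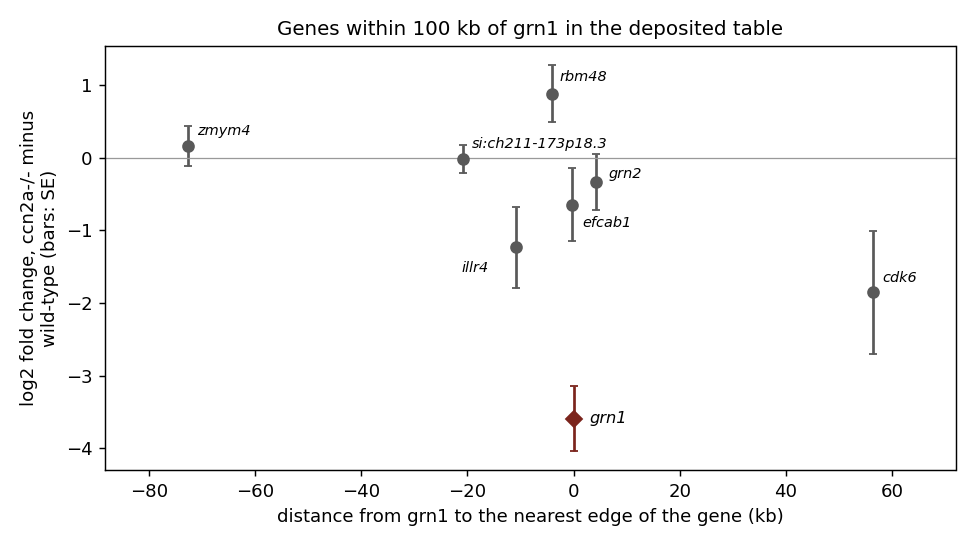
Fitted log2 fold change, ccn2a-/- minus wild-type, with its SE, of the tested genes within 100 kb of grn1, by distance to the nearest edge of each gene. The value of grn1 is -3.59 and the neighbours lie between -1.85 and 0.88.

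For the progranulin genes grna and grnb the fitted changes were smaller than that of grn1, with intervals that crossed 0 and were wide. Normalised counts of grna were 4751 and 6225 in ccn2a-/- against 6223 and 8073 in wild-type, which overlap at the margin. The log2 fold change of grna was -0.38 (95% confidence interval -0.98 to 0.22). It was -0.57 under quantile normalisation and -0.19 without either ccn2a-/- replicate 1 or wild-type replicate 2. For grnb they were 1087 and 1044 against 1031 and 913, slightly higher in each mutant library (log2 fold change 0.13, 95% confidence interval -0.33 to 0.60). The ratio of grnb to grna was 0.229 and 0.168 in ccn2a-/- against 0.166 and 0.113 in wild-type.

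Cathepsins were split in direction, with 8 of 15 lower and 7 higher in ccn2a-/- and a median log2 fold change of -0.03. The groups did not overlap at 2 lower and 4 higher genes, beside 25.7% lower and 26.6% higher over all genes tested. On the lower side were several lysosomal proteases with large counts. The aspartic protease gene ctsd had 6257 and 9237 in ccn2a-/- against 8970 and 16476 in wild-type. Wild-type replicate 2 was far above the other 3 libraries, which overlapped, and the log2 fold change of -0.68 (SE 0.360) became -0.24 without it and -0.40 without ccn2a-/- replicate 1.

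The same library set apart ctsz, the gene of a carboxypeptidase cathepsin, at 2117 and 3257 against 2823 and 5301, and its log2 fold change went from -0.56 to -0.10 without it and to -0.25 without ccn2a-/- replicate 1. The gene of cathepsin K, a strong collagenase, was lower in each mutant library, at 4212 and 4266 against 4652 and 7086. Its log2 fold change of -0.44 (SE 0.254) became -0.13 without wild-type replicate 2. The cathepsin B gene ctsba was also lower in each mutant library, at 4930 and 6537 against 7104 and 8399 (log2 fold change -0.44, SE 0.233, or -0.24 without ccn2a-/- replicate 1). None of these 4 genes passed the threshold, with adjusted p from 0.413 to 0.476 (limma).

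On the higher side the cathepsin L-like gene ctsll had the clearest separation. It was at 129 and 104 in ccn2a-/- against 47 and 32 in wild-type. The lower mutant value was above 2 times the higher wild-type value, and the log2 fold change was 1.55 with an SE of 0.370, or 2.94-fold (limma, unadjusted p = 0.00569, adjusted p = 0.381). It stayed between 1.28 and 1.82 when each library was left out in turn. The gene lies on chromosome 5 from 24305877 to 24309667, 45.9 kb from the V1 subunit gene atp6v1aa, which was lower in ccn2a-/-. None of the 8 tested genes within 100 kb of ctsll reached an unadjusted p under 0.05 (limma), beside 12.8% of all genes tested.

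The cathepsin genes ctsf, ctso and ctss2.2 were higher in each mutant library without passing. The cysteine protease gene ctsf was at 1704 and 1192 against 973 and 1110 (log2 fold change 0.46, SE 0.239, or 0.20 without ccn2a-/- replicate 1). For ctso, another cysteine cathepsin gene, the counts were 196 and 201 against 165 and 134 (log2 fold change 0.41, SE 0.262, or 0.27 without wild-type replicate 2). The cathepsin S gene ctss2.2 was at 1469 and 1551 against 1411 and 1186 (log2 fold change 0.22, or 0.10 without wild-type replicate 2). Its tandem neighbour ctss2.1, 1.04 kb away on chromosome 16, pointed the other way at 2312 and 3364 against 3153 and 4089, with overlapping groups and a log2 fold change of -0.36, or -0.09 without ccn2a-/- replicate 1. The ratio of ctss2.2 to ctss2.1 was 0.635 and 0.461 in ccn2a-/- and 0.448 and 0.290 in wild-type, so its groups lay apart by a narrow margin. That is partly built in, since ctss2.2 was higher in each mutant library and ctss2.1 had the opposite sign. With ctsk 6.35 kb from ctss2.1, these 3 genes form a cluster on the plus strand of chromosome 16.

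The remaining cathepsins overlapped between genotypes. The main cathepsin L gene ctsla was at 9406 and 8304 against 6992 and 10202, with a log2 fold change of 0.07 (95% confidence interval -0.56 to 0.69). Its direction was reversed under quantile normalisation (-0.18) and without wild-type replicate 1 (-0.21). The protective protein gene ctsa was at 2735 and 2919 against 2656 and 3154, the aminopeptidase gene ctsh at 1923 and 2120 against 2084 and 2412, and the dipeptidyl peptidase gene ctsc at 3458 and 4278 against 4303 and 4066. Their log2 fold changes were -0.03, -0.15 and -0.12, and ctsa was at 0.09 without wild-type replicate 2 and ctsc at 0.03 without ccn2a-/- replicate 1. The genes ctss1 and ctsl.1 had 5 to 19 counts in every library, too few to separate the genotypes.

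The LAMP genes were similar in ccn2a-/- and in wild-type replicate 1, and lower in wild-type replicate 2. Normalised counts of lamp1 were 868 and 837 against 834 and 598, and those of lamp2, the receptor gene of chaperone-mediated autophagy, were 3262 and 3582 against 3380 and 2260. Log2 fold changes were 0.27 (95% confidence interval -0.30 to 0.84) and 0.31 (-0.30 to 0.91). Without wild-type replicate 2 they were 0.03 and 0.02. A second gene written LAMP1 in capitals, on chromosome 1, falls outside the symbol rule and was at 676 and 502 against 556 and 595.

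Genes of the V-ATPase were read by sector, and the difference between sectors was not tested. Of 12 V1 subunit genes 10 were lower and 2 higher in ccn2a-/-, with a median log2 fold change of -0.29, and groups did not overlap at 6 lower and 1 higher gene. Of 7 V0 genes 4 were lower and 3 higher, with a median of -0.06, and groups did not overlap at 3 lower and 1 higher gene. Over all genes tested, 25.7% were lower and 26.6% higher without overlap. The counts of V1 genes summed to 1.46 and 1.49 times those of V0 genes in ccn2a-/-, and to 1.55 and 2.06 times in wild-type. The separation from wild-type replicate 1 was thus small, and wild-type replicate 2 carried most of the difference. Without that library the V1 median was -0.12, with 8 of 12 genes lower.

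Among V1 genes, atp6v1c1b was the clearest. Subunit C is the part that joins V1 to V0 and is released when the pump comes apart. Normalised counts were 279 and 291 in ccn2a-/- against 399 and 541 in wild-type, with each mutant library below each wild-type library. The log2 fold change was -0.70 with an SE of 0.244 (limma, unadjusted p = 0.0277, adjusted p = 0.381). Its unadjusted p was 0.109, 0.090 and 0.106 without ccn2a-/- replicate 1, ccn2a-/- replicate 2 and wild-type replicate 2, where the log2 fold change was -0.67, -0.73 and -0.48. Its paralogue atp6v1c1a overlapped between groups, at 734 and 834 against 785 and 1081. The ratio of atp6v1c1b to atp6v1c1a was 0.380 and 0.349 in ccn2a-/- and 0.508 and 0.5005 in wild-type, a gap wider than the spread within either genotype.

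An unadjusted p under 0.05 was reached by 12.8% of all genes tested (limma). Of 8 tested genes within 100 kb of atp6v1c1b on chromosome 19, 1 reached it. It was the ribonucleotide reductase gene rrm2b, at 687 and 559 against 409 and 406. The lysosomal membrane gene laptm4b, 59.15 kb away, was at 1128 and 1149 against 1010 and 617.

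A further 5 V1 genes were lower mainly against wild-type replicate 2. The catalytic A subunit gene atp6v1aa was at 882 and 840 against 991 and 1643 (log2 fold change -0.57, SE 0.278), and its paralogue atp6v1ab at 606 and 750 against 749 and 1122. The stalk subunit gene atp6v1e1b was at 898 and 1002 against 1160 and 1674 (log2 fold change -0.55, SE 0.240). The B subunit gene atp6v1ba was at 1613 and 1945 against 1983 and 2687, and atp6v1h, whose product regulates ATP hydrolysis, at 1297 and 1226 against 1346 and 1891. In these 5 genes wild-type replicate 2 was the highest library. Without it their log2 fold changes shrank to between -0.29 and -0.09.

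For atp6v1g1, another stalk subunit gene, the wild-type libraries were alike at 2056 and 1971, above 1787 and 1747 in ccn2a-/- (log2 fold change -0.19, 95% confidence interval -0.62 to 0.25). The genes atp6v1d, at 1889 and 1898 against 1728 and 2434, and atp6v1f, at 634 and 615 against 614 and 666, overlapped. Without wild-type replicate 2 the log2 fold change of atp6v1d turned from -0.12 to 0.13, and that of atp6v1f from -0.03 to 0.02.

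Some paralogues of the pump went opposite ways. The B subunit gene atp6v1b2 was higher in each mutant library, at 301 and 301 against 244 and 136 (log2 fold change 0.72, SE 0.333, or 0.30 without wild-type replicate 2), while atp6v1ba was lower. Their ratio was 0.187 and 0.155 in ccn2a-/- and 0.123 and 0.0506 in wild-type. It was bound to separate the genotypes, since the groups of each gene lay apart in opposite directions. The E subunit gene atp6v1e1a overlapped between groups, at 1088 and 959 against 1005 and 905 (log2 fold change 0.10, 95% confidence interval -0.38 to 0.57). Its ratio to atp6v1e1b, which was lower in each mutant library, was 1.21 and 0.957 against 0.866 and 0.541. For the A subunit pair the ratios overlapped, at 0.687 and 0.893 against 0.756 and 0.683 for atp6v1ab over atp6v1aa. They also overlapped for atp6v0a2b over atp6v0a1a, at 0.346 and 0.422 against 0.380 and 0.468. For lamp1 over lamp2 they overlapped at 0.266 and 0.234 against 0.247 and 0.265. How often ratios of other gene pairs lie apart was not computed.

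In V0, the gene atp6v0cb of the proton-carrying c ring was at 1007 and 955 in ccn2a-/- against 862 and 459 in wild-type. Each mutant library was higher, with a log2 fold change of 0.64 (SE 0.321, adjusted p = 0.407 with limma), which became 0.19 without wild-type replicate 2. Its paralogue atp6v0ca, at 3566 and 3545 against 3821 and 4030, was slightly lower (log2 fold change -0.14, 95% confidence interval -0.59 to 0.30). The ratio of atp6v0cb to atp6v0ca was 0.282 and 0.269 in ccn2a-/- and 0.226 and 0.114 in wild-type. In mean and SD that is 0.276 ± 0.00919 against 0.170 ± 0.0790 (n = 2 each). This ratio too was bound to separate, since atp6v0cb was higher and atp6v0ca lower in each mutant library. The ratios are given without a test, since with 2 libraries per group an exact permutation test cannot give a 2-sided p below 0.333.

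Most other V0 genes were close between genotypes. A further c ring gene, atp6v0b, was at 773 and 887 against 896 and 926 (log2 fold change -0.14). The d subunit gene atp6v0d1 was at 1646 and 1892 against 1794 and 1567 (log2 fold change 0.07, or -0.02 without wild-type replicate 2). Of the a subunit genes, which take part in placing the pump on particular membranes, atp6v0a1a was at 887 and 734 against 756 and 770, and atp6v0a2b at 307 and 310 against 287 and 360, with signs that turned when 1 library was left out. The gene atp6v0a2a had few counts, at 19 and 17 against 24 and 25, lower in each mutant library (log2 fold change -0.43, 95% confidence interval -1.57 to 0.72).

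**Figure D4:**
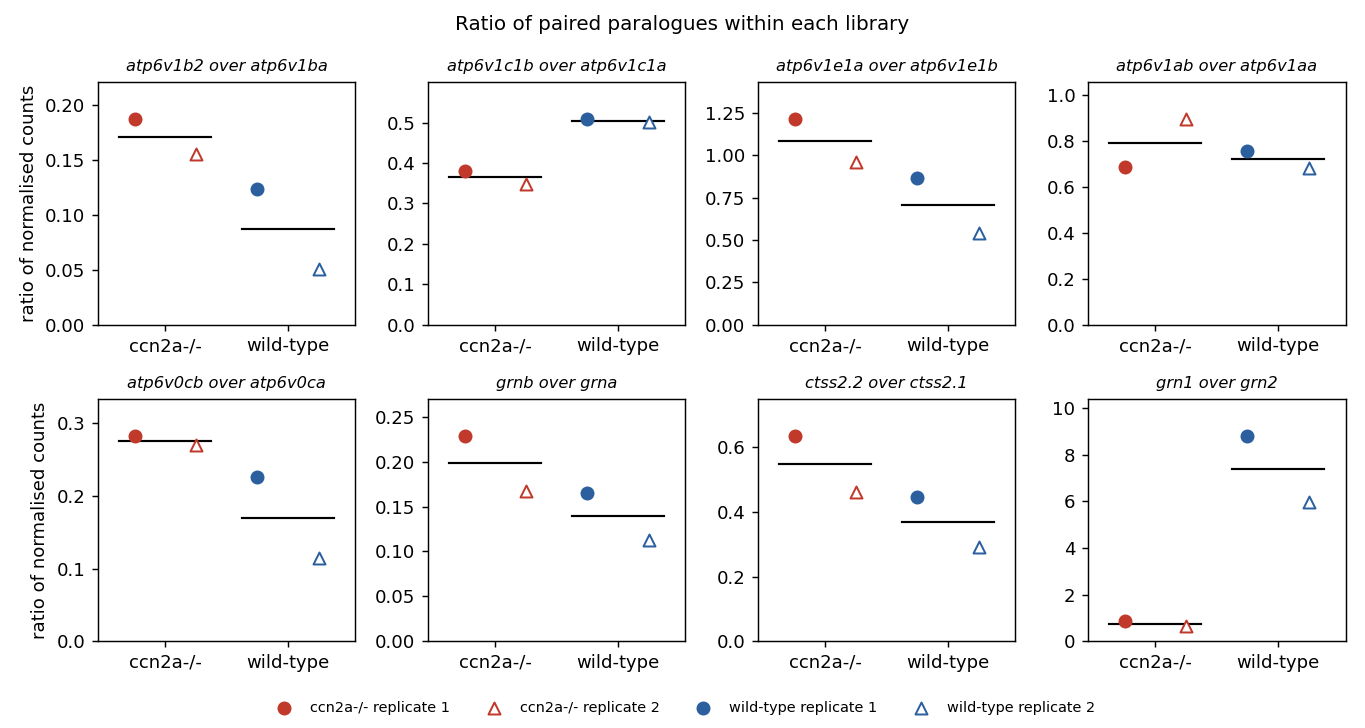
Ratio of the normalised counts of paired paralogues in each library (axes start at 0); horizontal lines are the group means, n = 2 each. The ratio of grn1 to grn2 is below 1 in each ccn2a-/- library and at 8.81 and 5.98 in wild-type, the ratio of atp6v1c1b to atp6v1c1a is at 0.380 and 0.349 against 0.508 and 0.5005, and the ratios of atp6v1ab to atp6v1aa overlap.

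Wild-type replicate 2 was often the extreme library among the members, though not in every class. That library was the highest of the 4 at 23 of the 40 members, or 57.5%, against 33.4% of all genes tested. It was the lowest at 11, or 27.5%, against 33.4% of all genes. Measured as log2(normalised count + 1) minus each gene's mean over the libraries, the V1 genes had a median of 0.38 in wild-type replicate 2. That median was -0.03 in wild-type replicate 1 and -0.17 and -0.06 in ccn2a-/- replicates 1 and 2. For the cathepsins the medians were 0.18 in wild-type replicate 2 and -0.15 in ccn2a-/- replicate 1, with 0.03 and -0.08 in ccn2a-/- replicate 2 and wild-type replicate 1. For the 4 granulins ccn2a-/- replicate 1 lay furthest out, at -0.48. The granulin medians were 0.02 in ccn2a-/- replicate 2 and 0.29 and 0.11 in wild-type replicates 1 and 2. Without wild-type replicate 2 the members at an unadjusted p under 0.05 were 2, or 5%, against 2.68% of all genes (limma). Without wild-type replicate 1 they were 9, or 22.5%, against 14.5% of all genes.

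**Figure D5:**
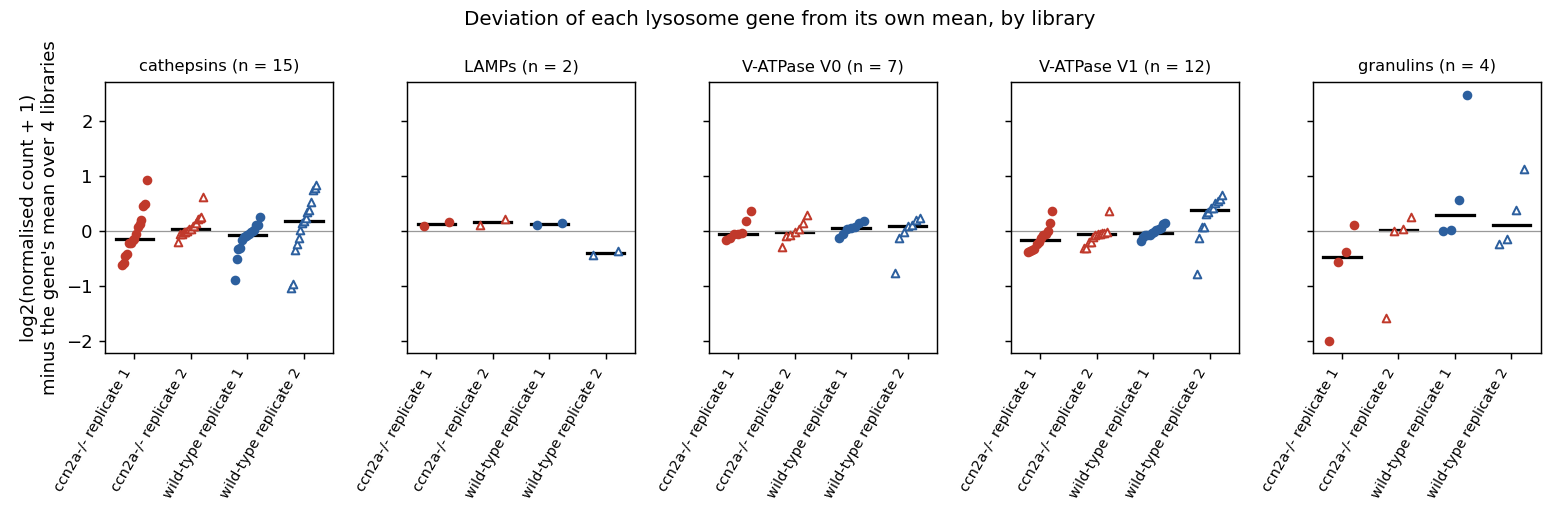
Deviation of log2(normalised count + 1) from each gene's mean over the 4 libraries, by class and library; each point is a gene and each bar the median of the class. The V1 median is 0.38 in wild-type replicate 2 and between -0.17 and -0.03 in the other libraries, and the LAMP genes are low in wild-type replicate 2.

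Summed over members, normalised counts came to 71665 and 80749 in ccn2a-/- and to 85391 and 103292 in wild-type. As a share of the values of the nuclear genome this was 0.391% and 0.489% against 0.546% and 0.686%. The sum rests on a few genes with many counts, such as ctsd, ctsla, ctsba and grna, and on grn1 in the wild-type libraries. With grn1 left out, at 285 and 378 against 6351 and 2475, the summed counts of the groups overlap. All values of a library came to 21.5 M and 19.1 M in ccn2a-/- against 18.1 M and 16.3 M in wild-type. The shares therefore lie further apart than the sums.

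In the pathway annotation of the deposited table, 22 of the 40 members carried the KEGG term Lysosome, 24 the term Phagosome and 18 the term Oxidative phosphorylation. All 7 V0 genes carried each of the 3, and none of the 4 granulins carried any. Outside the symbol rule the Lysosome term held 98 tested genes, of which 52 were lower and 46 higher in ccn2a-/- (median log2 fold change -0.03). At an unadjusted p under 0.05 there were 6 lower and 7 higher (limma), where all genes gave 6.93% lower and 5.89% higher.

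Other genes of the pathway were read from lists that leave out the members, and none of the 147 tested genes passed the adjusted threshold (limma). At an unadjusted p under 0.05, 6 of the 147 were lower and 9 higher (limma), where all genes gave 6.93% lower and 5.89% higher. Among 55 hydrolases and luminal proteins, 32 were lower and 23 higher (median log2 fold change -0.09, or -0.02 without ccn2a-/- replicate 1). The beta-galactosidase-like gene glb1l was at 213 and 458 against 817 and 948, and the heparan sulfate sulfatase gene sgsh was on the other side, at 383 and 322 against 216 and 208. The ribonuclease gene rnaset2, at 1107 and 1072 against 872 and 668, and the carboxypeptidase gene prcp, at 690 and 754 against 576 and 445, had an unadjusted p of 0.053 and 0.061 (limma).

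Among 44 membrane proteins, 19 were lower and 25 higher (median 0.09, or 0.03 without wild-type replicate 2). The gene slc38a9, whose product senses amino acids at the lysosome for the growth kinase complex mTORC1, was at 56 and 114 against 189 and 204. Higher in each mutant library were tmem106ba, at 1344 and 928 against 744 and 621, and mfsd8, at 403 and 330 against 252 and 145. The transporter gene abca2 was at 194 and 242 against 309 and 316.

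Of 15 further V-ATPase subunits, accessory and assembly genes, 6 were lower and 9 higher (median 0.16). The accessory gene atp6ap1a was at 400 and 258 in ccn2a-/- against 209 and 155 in wild-type. The gene rogdi was at 180 and 124 against 90 and 76, rnasekb at 158 and 101 against 476 and 201, and the assembly factor gene tmem199 at 475 and 647 against 435 and 314. These 4 were named for their small p. At an unadjusted p under 0.05, 1 of the 15 was lower and 2 were higher (limma), where all genes gave 6.93% lower and 5.89% higher. They were rnasekb on the lower side and atp6ap1a and rogdi on the higher side (limma, adjusted p = 0.381 for each of the 3).

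The list for delivery to the lysosome was drawn broadly, with vps and sumf genes beside receptors and tagging enzymes. Of its 18 tested genes, 15 had a log2 fold change above 0 (median 0.17, or 0.08 without ccn2a-/- replicate 1). Over all genes tested, 50% had a log2 fold change below 0. At an unadjusted p under 0.05, 2 of the 18 were lower and 3 higher (limma), beside 6.93% and 5.89% of all genes. The mannose 6-phosphate receptor gene igf2r was at 96 and 177 in ccn2a-/- against 260 and 417 in wild-type. The gene nagpa, whose enzyme uncovers the mannose 6-phosphate tag, was at 70 and 84 against 156 and 180. The sortilin genes lay on the other side, sort1b at 900 and 651 against 507 and 349 and sort1a at 607 and 655 against 486 and 235. Sortilin is a receptor of progranulin in mammals. The gene sumf2 was at 281 and 284 against 184 and 177. The gene sort1a was named after its values were seen, being the fifth of the list by p.

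The list of the TFEB family, the transcription factors that switch on lysosomal genes, and of its regulators had 7 of 10 genes lower and 3 higher (median -0.33, or -0.11 for genes with a mean of 50 or more and -0.17 without ccn2a-/- replicate 1). Within it tfeb itself was higher in each mutant library, at 1595 and 1248 against 849 and 434, with a log2 fold change of 1.22 (SE 0.348, limma unadjusted p = 0.0130, adjusted p = 0.381). The family member tfe3b, named after its values were seen, was at 2 and 17 against 34 and 48. The growth kinase gene mtor was at 849 and 1005 against 1221 and 1128, the TFEB regulator gene flcn at 447 and 343 against 359 and 255, and tfec at 96 and 52 against 90 and 117.

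Cystatins inhibit cysteine cathepsins. Of 5 tested genes, 2 were lower and 3 higher, and 0 reached an unadjusted p under 0.05 (limma). The secreted cystatin gene cst3 was at 5015 and 4294 against 4088 and 2419. The genes cst14b.1 and cst14a.2 were at 343 and 486 against 396 and 1200 and at 1218 and 1483 against 1199 and 1123, and cst14a.1 was at 98 and 116 against 114 and 71.

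Markers of the cell types in the ventricle were read in the same libraries. Of 18 macrophage markers, all tested, 11 were lower and 7 higher in ccn2a-/- (median log2 fold change -0.27). At an unadjusted p under 0.05, 4 of the 18 were lower and 0 higher (limma), where all genes gave 6.93% lower and 5.89% higher. The summed counts of the 18 markers were 47971 and 38986 in ccn2a-/- and 42842 and 35333 in wild-type, so the groups overlapped. No marker was at 0 in any library. The MHC class II chain genes cd74a and cd74b, singled out after their values were seen, held a large part of these sums, with 28083 and 17647 in ccn2a-/- against 17229 and 8115 in wild-type. The other 16 markers summed to 19888 and 21339 against 25613 and 27218, lower in each mutant library, in a split made after the values were seen. Of these 16, mpeg1.1, mpeg1.2, irf8, spi1a and timd4 had a log2 fold change above 0. The pan-macrophage gene mpeg1.1 was at 3105 and 2636 against 2664 and 2881. The 4 lower markers at an unadjusted p under 0.05 were mfap4, c1qb, lygl1 and csf1ra (limma). The gene mfap4 had 419 and 645 counts beside 1343 and 916 in wild-type (log2 fold change -1.09). For the macrophage growth factor receptor gene csf1ra, ccn2a-/- replicate 1 stood apart at 132, with 660 in replicate 2 and 1090 and 926 in wild-type (log2 fold change -1.76).

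Of 14 genes tested as neutrophil markers 10 were lower (median -0.43), and their summed counts were 11346 and 12870 against 12874 and 14835. At an unadjusted p under 0.05 there were 3 lower and 1 higher neutrophil marker (limma), where all genes gave 6.93% lower and 5.89% higher. Of 7 pan-leukocyte markers 6 were lower (median -0.24), with sums of 15115 and 14726 against 16265 and 19302. On the other side, 11 of 14 cardiomyocyte genes were higher in ccn2a-/- (median 0.39), and their sums were 1125735 and 982535 against 859280 and 579748. The cardiomyocyte sum was thus lowest in wild-type replicate 2, the library in which the V1 genes were highest. Erythrocyte markers were higher at 9 of 9 and endothelial markers at 9 of 9, with medians of 0.83 and 0.48. At an unadjusted p under 0.05, 6 erythrocyte and 4 endothelial markers were higher and 0 lower (limma). Over all genes, 5.89% were higher and 6.93% lower at that level, and 50% had a log2 fold change below 0. Fibroblast and epicardial markers had a median of -0.08. The 5 tested exocrine pancreas markers had a median of 0.75, where ctrb1 was at 98 and 82 against 704 and 1179. The 4 tested T lymphocyte markers had a median of 0.37, with 1 lower and 3 higher. Their sums overlapped, at 103 and 130 against 246 and 109. The lower gene, cd4-1, was at 26 and 43 against 128 and 76 (log2 fold change -1.53). In wild-type replicate 2, il7r and lck were at 4 counts each and zap70 at 25. The part of these cell types in the values of the lysosome genes was not tested.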

How the data were processed

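Messenger RNA of 4 ventricle libraries was prepared with a stranded library kit, per the labels' protocols. The submitters' processing notes name DESeq2 1.6.2, featureCounts 1.4.5-p1 and STAR 2.4.0a. No source used here gives the strand setting of the counts. The deposited values are whole-number scores: read counts that the authors divided by a size factor and rounded, a reading taken from their spacing, with factors of 0.874 and 0.946 in ccn2a-/- and 0.952 and 1.32 in wild-type, the last estimated from how often each whole number occurs, since a factor above 1 merges reads. No count model was used for that reason, and limma-trend (limma 3.58.1 in R 4.3.3) was fitted on log2(value + 1), a scale that understates changes of low genes. Genes needed a mean of 10 or more, the fit covered all 16730 of them with genotype as its term, and Benjamini-Hochberg adjustment ran over all of them. The fit was tried on simulated data in which every gene had the same setting of replicate spread and no library stood apart. That trial does not show how the fit performs on these libraries. Tables and figures used Python 3.11.15, pandas 2.3.3, numpy 2.4.6 and matplotlib 3.10.9.

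The members and the gene lists were chosen with earlier results of these data known. Every member may be named. Full values went to all granulins and LAMPs, to up to 6 genes a direction in each other class with a mean of 50 or more and groups apart, to the 2 with the largest mean in each class, and to up to 4 genes of each pathway list by p. KEGG terms, neighbours and paralogue ratios were added after values had been seen. Counts were not compared between genes as levels, since transcript lengths were not used here. Promoter motifs were not analysed here.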

Additional observations from a re-analysis of the deposited data

How the results depend on the processing

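Under every alternative tried, 0 genes and 0 members passed the adjusted threshold (limma). The alternatives were a pseudocount of 5, no filter or a mean of 50 or more, quantile normalisation, trimmed mean scaling, voom on approximate reads, a replicate block and leaving out each library. Among all genes, 448 to 2597 had an unadjusted p under 0.05 without each library in turn, against 2145 with all. Members lower in ccn2a-/- at that level were 2, but 4 under quantile normalisation, 5 with the replicate block and 1 to 6 without each library; higher members were 1, or 1 to 3 without each library. Without each library, groups did not overlap at 23 to 37 members (57.5% to 92.5%), beside 70.8% to 79.8% of all genes; fewer samples overlap less by construction, so these counts are not like the 20 with all libraries. The sample titles do not say whether samples with the same number were handled as a pair. Deviations of samples with the same number correlated at 0.00406 across genes, which cannot settle this. With the replicate block 2655 genes had an unadjusted p under 0.05 (limma), against 2145 without it. Members at that level were 6 with the block and 3 without it.

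Without each library in turn the class medians ran from -0.21 to 0.0892 for cathepsins, 0.02 to 0.55 for LAMPs, -0.16 to -0.0237 for V0, -0.53 to -0.12 for V1, -0.66 to -0.0506 for granulins and -0.19 to -0.0347 for all members. For the pathway lists they ran from -0.13 to -0.02 (hydrolases), 0.03 to 0.12 (membrane), 0.17 to 0.28 (V-ATPase accessory), 0.08 to 0.22 (delivery), -0.29 to -0.17 (TFEB family) and 0.04 to 0.35 (cystatins). Under quantile normalisation those of hydrolases, V-ATPase accessory genes and the TFEB family were -0.16, 0.09 and -0.22. The V0 median was 0.0073 at a mean of 50 or more, since that filter leaves out atp6v0a2a. Directions reversed for ctsla under quantile normalisation (-0.18), where the cause was not tested. They also reversed in single left-out libraries for ctsla (-0.21 to 0.34), grn2 (-0.74 to 0.086), atp6v0d1 (-0.0266 to 0.17) and atp6v1d (-0.36 to 0.13). Reversals were also seen for atp6v0a1a (to -0.06), atp6v0a2b (to 0.10), atp6v1f (to 0.02), ctsa (to 0.09), ctsc (to 0.03) and ctsl.1 (to -0.81). The sign of ctsl.1 turned with a pseudocount of 5 as well (-0.006). With 2 libraries a group, wild-type replicate 2 decided the size of most V1, LAMP and ctsd changes. The directions of lamp1 (0.03 to 0.51), lamp2 (0.02 to 0.60) and ctsd (-1.12 to -0.24) held without each library in turn. So did those of atp6v1aa (-0.93 to -0.20) and atp6v1e1b (-0.82 to -0.29), while those of atp6v1d and atp6v1f did not. The genes grn1, ctsll and atp6v1c1b kept their direction under every alternative run, but were singled out by their unadjusted p in these same libraries. Where 1 library is left, it is assumed to vary like the other group. The count of members without overlap was recomputed only for the stricter filter and left-out libraries. Genes with few counts, such as ctss1 and ctsl.1, are limited by depth.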
